A study of Mus musculus with 60 samples.

Results

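The comparison described here was between kidneys of cKOt mice and of control mice collected at ZT16, where ZT (zeitgeber time) counts hours from lights on, so that ZT16 lies in the early active phase of a nocturnal animal. It took every sample labelled with that time point, 5 cKOt and 5 control samples, which were 10 of the 60 samples of the series. Both genotypes were male C57BL/6J littermates kept under 12 h of light and 12 h of dark, and both carried Bmal1lox/lox alleles of Arntl (the gene of BMAL1). The cKOt mice also carried Pax8-rtTA and LC-1 Cre, whereas control mice carried neither. From 8 weeks of age all of them drank doxycycline (DOX, 2 mg/ml with 20 mg/ml sucrose) for 2 weeks, and kidneys were taken 4 weeks later. Pax8-rtTA drives the DOX-dependent Cre in cells of the renal tubule, so endothelial, interstitial, immune and glomerular cells keep intact Arntl in both genotypes. The labels name the tissue as renal tubule, while the study's methods describe RNA from pieces of frozen kidney.

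BMAL1 pairs with CLOCK or with its paralog NPAS2 and binds E-box elements to activate transcription. Its targets include the Period and Cryptochrome genes, whose proteins repress the pair, and the REV-ERB genes Nr1d1 and Nr1d2, whose proteins repress genes with ROR elements, Arntl itself, Npas2 and Cry1 among them. ROR receptors activate through the same elements. The PAR bZIP factors DBP, TEF and HLF activate, and NFIL3 represses, through D-box elements. In the kidney this network is known for daily rhythms in transport, drug handling and metabolism. Control levels at one time point therefore reflect where each gene stands in its daily cycle.

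Poly(A) RNA was sequenced and the authors counted reads per gene. The 10 libraries held between 17950038 and 19597225 reads counted on genes. The 10 most abundant genes took 14.5 to 16.1% of these reads in control mice and 12.7 to 14.3% in cKOt mice. Reads without a unique alignment were 26.6 to 27.4% of all reads in control mice and 25.0 to 26.9% in cKOt mice. Of the rest, reads on no gene were 7.17 to 8.62% in control mice and 8.48 to 10.4% in cKOt mice. The groups thus differed in composition too. Control replicate 1 stood farther from its group than any other library, with a root mean square deviation of 0.324 on the log2 scale against 0.189 to 0.255 for the other 9. Of the study's RNA batches, 3 held both genotypes at ZT16, while control replicates 2 and 5 and cKOt replicate 4 came from batches with no counterpart of the other genotype. The study's sample table marks cKOt replicate 4 for removal, citing a slightly lower RNA integrity, although that library is among the 60 samples. It was kept here, and without it 2853 genes were called in place of 3071. Levels are given below as CPM, read counts scaled to a common library size after TMM normalization, for each mouse. Fold changes are cKOt over control, from edgeR's quasi-likelihood test over all 60 samples, and a gene was called when its p-value, adjusted over all genes by the Benjamini-Hochberg method, was under 0.05.

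Arntl, the deleted gene, was not called by its total reads at ZT16. Control mice had 12.0, 14.1, 16.4, 36.5 and 28.4 CPM (21.5 ± 10.6, mean ± SD, n = 5), and cKOt mice had 20.3, 20.2, 21.6, 20.9 and 19.6 CPM (20.5 ± 0.749, n = 5). The cKOt values lay within a narrow band inside the control range. The log2 fold change was -0.06 ± 0.20 (SE, adjusted p = 0.867). The count takes in reads from any exon of Arntl, the floxed ones or not, so a shortened transcript from the recombined allele still adds to it and the total is a partial check of the labels. In control mice the Arntl mean moved from 2.77 CPM at ZT12 through 21.5 CPM at ZT16 to 47.2 CPM at ZT20, whereas in cKOt mice it stayed between 17.4 and 24.4 CPM at all 6 time points. The genotypes were thus sampled where their Arntl levels crossed. Control replicates 4 and 5, which had the most Arntl, also had the least Dbp, Ciart and Per3 of their group.

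Of 15546 genes tested, 3071 (19.8%) were called at ZT16, 1555 higher in cKOt mice (10%) and 1516 lower (9.75%). Counts of called genes within the lists below are to be read beside these shares. Most differences were small, with a median size of 0.34 on the log2 scale among called genes, and 339 genes changed by 2-fold or more (164 higher, 175 lower). The 5 cKOt and 5 control values did not overlap in 1406 genes (9.04% of those tested), of which 1306 were called. In the 3 shared batches, 2495 of the called genes (81.2%) had the same direction every time, against 34.4% of all genes tested. The batch differences use libraries that also gave the calls, so called genes were bound to match more often. The 2 shares therefore do not show whether batch played a part. Without the factors for unwanted variation that the main model used, 1853 genes were called, and in a model of the 10 ZT16 samples alone 1423. The samples are separate mice. The main p-values measure the spread within groups over all 60 samples that is left after the factors for unwanted variation. They do not measure the full spread between the 10 mice at ZT16. In these bulk samples, fewer cells of a type and less RNA per cell cannot be told apart.

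Clock genes moved in both directions. Npas2, the paralog that can stand in for CLOCK, rose most among them, and the REV-ERB gene Nr1d2, the BMAL1:CLOCK inhibitor Ciart (CHRONO), Per3 and Dbp fell by more than 2-fold. Npas2 had 3.17, 3.28, 4.13, 4.92 and 8.92 CPM in control mice and 50.8, 54.5, 40.9, 47.9 and 47.6 CPM in cKOt mice. No value overlapped, and the log2 fold change was 3.25 ± 0.23 (9.51-fold, adjusted p = 6.95e-17). Nr1d2 had 115, 154, 140, 96.3 and 96.9 CPM in control mice and 25.4, 27.1, 32.6, 31.0 and 34.1 CPM in cKOt mice. It fell by 1.97 ± 0.14 on the log2 scale (3.92-fold, adjusted p = 1.41e-16), again without overlap. Its paralog Nr1d1 was low at this time in both genotypes, with means below those at ZT4, ZT8 and ZT12, and was not called (6.54 ± 1.66 against 4.40 ± 1.84 CPM, adjusted p = 0.123).

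Promoter sequence is shown for the called clock genes whose promoter held an E-box or a D-box, since these elements carry the activity of BMAL1 and of the PAR bZIP factors. In RefSeq promoters (GRCm38.p6, 250 bases before to 50 after the start of transcription) 16 of the 20 clock genes matched, 10 of them called, and 4 of these 10 had an exact CACGTG E-box or a TTATGTAA or TTACGTAA D-box on either strand. The 250 bases before the start follow, with E-box or D-box letters in capitals.
Per3 (chr4:151044666-151044915, minus strand): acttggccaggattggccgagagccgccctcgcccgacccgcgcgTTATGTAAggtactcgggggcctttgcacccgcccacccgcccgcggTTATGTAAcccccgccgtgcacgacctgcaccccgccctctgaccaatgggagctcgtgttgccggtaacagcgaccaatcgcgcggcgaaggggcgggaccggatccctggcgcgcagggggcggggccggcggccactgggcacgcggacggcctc
Tef (chr15:81802423-81802672, plus strand): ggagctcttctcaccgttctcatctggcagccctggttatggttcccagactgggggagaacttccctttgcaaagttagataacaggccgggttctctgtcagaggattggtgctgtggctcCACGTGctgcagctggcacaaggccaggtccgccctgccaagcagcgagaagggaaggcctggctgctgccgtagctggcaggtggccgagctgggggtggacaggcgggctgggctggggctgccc
Cry1 (chr10:85185055-85185304, minus strand): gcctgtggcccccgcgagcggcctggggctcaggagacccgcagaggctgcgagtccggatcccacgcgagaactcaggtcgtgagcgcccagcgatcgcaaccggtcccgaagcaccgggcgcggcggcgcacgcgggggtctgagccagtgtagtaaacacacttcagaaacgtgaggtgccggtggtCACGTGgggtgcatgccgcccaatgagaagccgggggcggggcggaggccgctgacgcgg
Ciart (chr3:95882229-95882478, minus strand): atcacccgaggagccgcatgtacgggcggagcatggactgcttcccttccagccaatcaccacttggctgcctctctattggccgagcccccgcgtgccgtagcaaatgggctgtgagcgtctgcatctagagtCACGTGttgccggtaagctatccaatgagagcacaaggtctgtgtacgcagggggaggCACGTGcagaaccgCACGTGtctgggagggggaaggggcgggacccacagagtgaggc

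Ciart held 3 E-boxes, with first bases at -116, -58 and -44 from the start, Cry1 held 1 at -60, Tef held 1 at -127 in the first of its 2 promoters, and Per3 held 2 D-boxes at -205 and -158. The genes with E-boxes did not move one way, as Ciart and Tef fell and Cry1 rose. Among promoters of all tested genes with a match in the table (11416 genes, 14596 promoters), 9.49% held the E-box, 0.76% the D-box and 1.93% the core of a ROR element (TAGGTCA). In the promoters of genes called lower the shares were 10.8, 2.07 and 2.34%, and in those of genes called higher 8.95, 0.523 and 2.68%. These are matches of letters in one window and are no evidence of binding.

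Of the other activators, Clock (log2 0.26 ± 0.09, adjusted p = 0.0376) and Rora (-0.30 ± 0.11, adjusted p = 0.0363) passed narrowly with overlapping values, and both calls were lost in models without the factors for unwanted variation and in 5 of the 10 models that left out 1 mouse (adjusted p up to 0.137 for Clock and 0.102 for Rora).

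Of the 5 Period and Cryptochrome genes, Cry1 and Cry2 rose and Per3 fell. Cry1 had 22.4, 19.9, 21.3, 24.5 and 23.2 CPM in control mice and 32.0, 37.1, 35.8, 34.9 and 35.5 CPM in cKOt mice. It rose 1.57-fold without overlap (log2 0.66 ± 0.10, adjusted p = 8.82e-07), and Cry2 rose 1.21-fold with overlap (adjusted p = 0.000677). Per3 had 45.6, 56.1, 46.9, 29.7 and 33.3 CPM in control mice and 20.3, 15.0, 18.9, 18.4 and 21.2 CPM in cKOt mice. The groups did not overlap and Per3 fell by 1.17 ± 0.15 on the log2 scale (2.24-fold, adjusted p = 1.57e-08). Per1 (22.5 ± 4.01 against 19.8 ± 5.23 CPM) and Per2 (101 ± 20.6 against 81.9 ± 15.9 CPM) were not called (adjusted p = 0.564 and 0.117).

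The other repressors and the output factors were lower or did not pass. Ciart had 2.79, 5.39, 3.10, 1.58 and 2.04 CPM in control mice and 0.467, 0.590, 0.854, 0.852 and 0.568 CPM in cKOt mice, a fall of 2.11 ± 0.39 on the log2 scale (adjusted p = 3.1e-05). Bhlhe40 (DEC1) fell by 0.49 ± 0.15 (adjusted p = 0.0128), although cKOt replicate 4 reached 191 CPM, inside the control range of 156 to 196, and the call was lost without cKOt replicate 2 (adjusted p = 0.0649). Bhlhe41 was not called. Dbp had 13.1, 14.6, 8.32, 5.97 and 6.78 CPM in control mice and 3.79, 2.36, 4.59, 5.17 and 3.67 CPM in cKOt mice. It fell by 1.32 ± 0.22 on the log2 scale without overlap (adjusted p = 6.54e-06), and Tef fell by 0.63 ± 0.09 (adjusted p = 2.65e-07). Hlf was near-equal (158 ± 17.2 against 153 ± 11.6 CPM, adjusted p = 0.635). Nfil3 spread widely in both groups, 7.19 to 24.2 CPM in control and 14.9 to 32.4 CPM in cKOt mice, and was not called (adjusted p = 0.187).

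**Figure D1:**
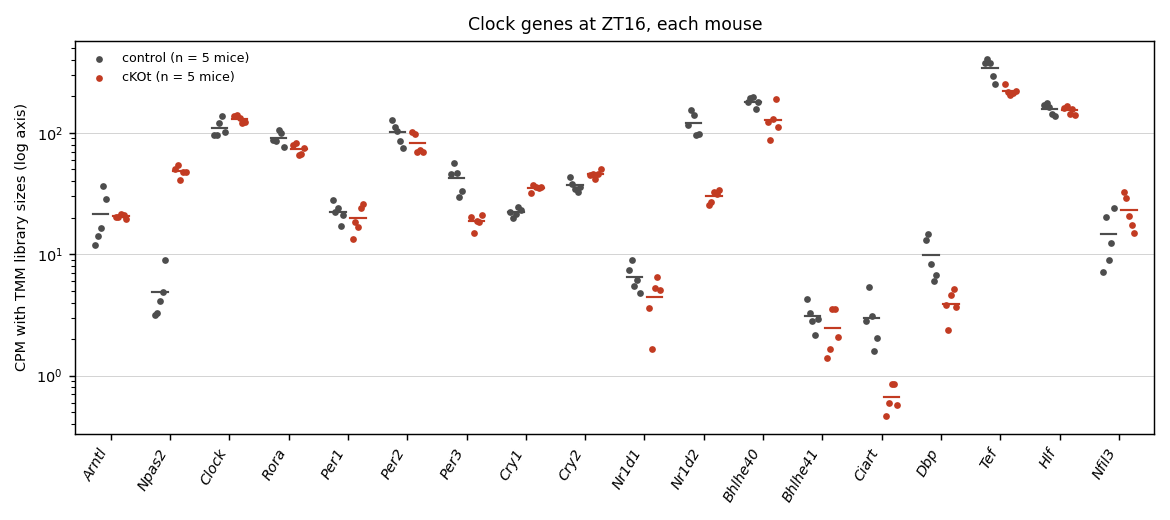
Levels of the clock genes at ZT16, in CPM with TMM library sizes on a log axis, 1 point per mouse and a bar at the mean (n = 5 control and 5 cKOt mice). Npas2 and Cry1 lie higher in cKOt mice, Nr1d2, Per3, Ciart, Dbp and Tef lie lower, all without overlap, and the cKOt points of Arntl (19.6 to 21.6 CPM) lie inside the control range.

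The ZT16 effect was then compared with the effect at the other 5 time points, which shares the model but not the mice. Of the 3071 ZT16 calls, 2656 were also called in the mean of the other times in the same direction and 3 in the opposite direction. That mean, which rests on more mice, called 7061 of all 15546 genes tested, so much overlap would arise from its size alone. The difference itself passed the test for 16 genes (0.103% of those tested) against the mean of the other times, with 1492 genes at an unadjusted p under 0.05, and for 43 genes (0.277%) against ZT4, with 1452 at an unadjusted p under 0.05. The first count ranged from 6 (without control replicate 2) to 26 (without cKOt replicate 4) when 1 mouse was left out. The clock gene Cry1 passed both tests. Its effect was 1.09 ± 0.11 smaller on the log2 scale than in the mean of the other times (0.66 against 1.74, adjusted p = 1.93e-09). Cry1 in control mice had a mean of 2.75 CPM at ZT4, 22.3 CPM at ZT16 and 23.1 CPM at ZT20, against cKOt means of 27.0 to 35.1 CPM over the day. The control mean was near its daily maximum at ZT16 and the cKOt mean was above it. The Cry2 effect was also smaller at ZT16 (log2 0.28 against 0.59, adjusted p of the difference = 0.0456).

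Against ZT4, the loss of Dbp was 1.98 ± 0.31 smaller at ZT16 on the log2 scale (adjusted p of the difference = 0.000197), that of Nr1d1 1.79 ± 0.36 smaller (adjusted p = 0.00561) and that of Per3 0.93 ± 0.22 smaller (adjusted p = 0.0423). Control means of Dbp were 47.2 CPM at ZT4 and 9.76 CPM at ZT16, while cKOt means were 4.04 and 3.91 CPM. Per3 differed from Dbp in this, since its control means were alike at both times (43.2 and 42.3 CPM) and its cKOt mean was higher at ZT16 (9.89 and 18.8 CPM).

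**Figure D2:**
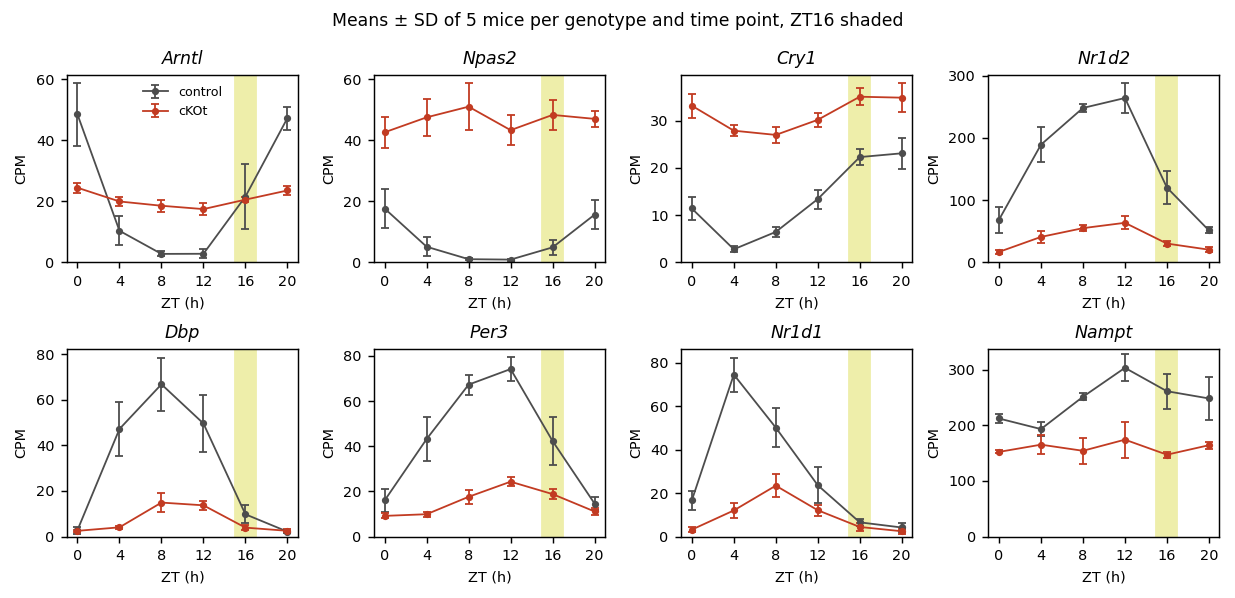
Mean ± SD CPM of 5 mice per genotype at ZT0, 4, 8, 12, 16 and 20 for 8 genes, with ZT16 shaded. At ZT16 control Arntl (21.5 CPM) meets the flat cKOt level (20.5 CPM), control Cry1 is near its daily maximum, and control Dbp and Nr1d1 are below their means at ZT4, ZT8 and ZT12.

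Outside the clock lists, the other genes with a larger or smaller effect at ZT16 were few. Gm42047, an uncharacterised transcript, went from 58.7 ± 18.4 CPM in control mice to 24.8 ± 5.46 CPM in cKOt mice at ZT16, and its effect of -1.22 differed from the mean of 0.31 at the other times (adjusted p = 0.0309). Ddc, which makes dopamine from L-DOPA in the proximal tubule, had 40.7, 48.4, 50.5, 58.8 and 59.3 CPM in control mice and 173, 178, 180, 162 and 147 CPM in cKOt mice. It rose 3.29-fold without overlap (log2 1.72 ± 0.10, adjusted p = 6.34e-20), which was 0.55 ± 0.11 more than at the other times (adjusted p = 0.012). Thra, a thyroid hormone receptor gene, rose 2.87-fold (31.4 ± 3.69 to 91.7 ± 5.46 CPM), 0.34 ± 0.07 more than elsewhere (adjusted p = 0.0158). The effect was also larger for 9030625G05Rik, Eddm3b and Fabp7, and for Hmgn3 it was 0.45 at ZT16 against -0.11 in the mean of the others (adjusted p of the difference = 0.0456). It was smaller for Lingo4 (0.62 against 1.98, with the ZT16 call itself lost without control replicate 3, cKOt replicate 1 or cKOt replicate 4, adjusted p up to 0.0869) and Rhobtb1 (0.49 against 0.93), and more negative for Slc16a9 (-0.61 against -0.26), which encodes a carnitine transporter. The remaining 3 of the 16 genes were Crocc, Chrna4 and Il13ra1, named here after their values were seen.

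**Figure D3:**
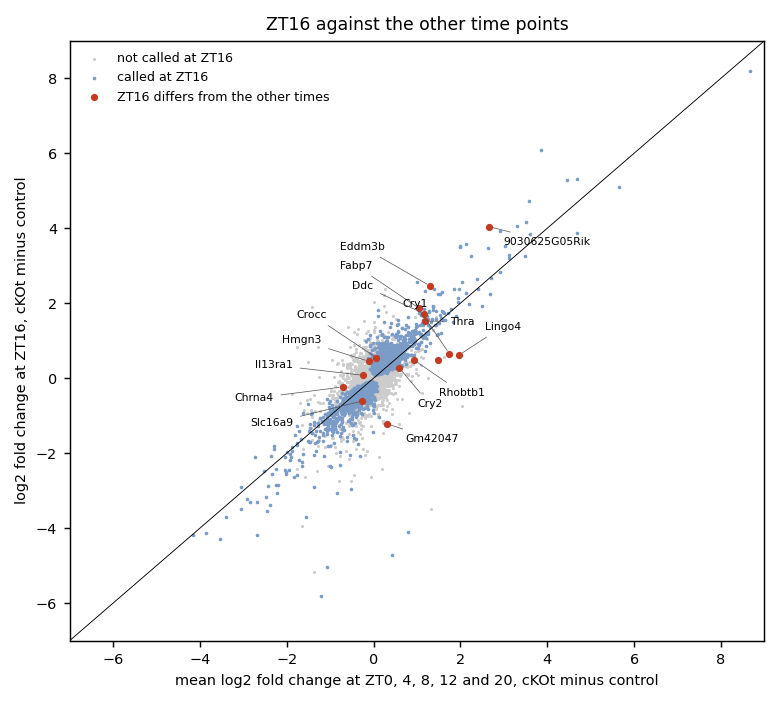
Log2 fold change (cKOt minus control) of each tested gene at ZT16 against the mean of the other 5 time points, with the line of equality. Genes called at ZT16 are blue, and the 16 genes whose ZT16 effect differed from the other times are red, most of them named, with Cry1 below the line and 9030625G05Rik above it.

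Of the 10 largest increases at ZT16, 9 were in genes with control means between 0.0117 and 5.00 CPM, and the other was in Hao2. Vmn1r32, a vomeronasal receptor gene, had 1 read in all control libraries together and 507 in the cKOt libraries, a ratio of 483 with a 95% counting interval of 86.2 to 19100. The interval covers the counting of the pooled reads only and leaves out the spread between mice. Fhad1 had 0.0574 to 0.293 CPM in control and 5.38 to 7.74 CPM in cKOt mice, and Slc7a12, an amino acid transporter gene, 0.859 to 1.56 CPM in control and 21.0 to 62.9 CPM in cKOt mice. Loxl4, a lysyl oxidase gene, had 4.03, 2.5, 2.47, 3.10 and 3.60 CPM in control mice and 43.9, 45.0, 61.7, 57.4 and 51.6 CPM in cKOt mice. It rose 16.6-fold (log2 4.05 ± 0.16) and shared the smallest adjusted p (9.65e-28) with Car5b, a mitochondrial carbonic anhydrase gene that rose 2.96-fold from 70.6 ± 9.37 to 205 ± 11.9 CPM. Hao2, a peroxisomal hydroxyacid oxidase gene, had 78.5, 79.9, 78.0, 95.2 and 75.8 CPM in control mice and 856, 1049, 1051, 974 and 674 CPM in cKOt mice (11.5-fold, adjusted p = 1.27e-26). The fibrinogen gamma chain gene Fgg, Aqp8, Col6a6, 9030625G05Rik and A530001N23Rik completed the 10, with folds between 9.82 and 18.1. Folate hydrolase gene Folh1, among the 5 smallest p-values, rose 3.23-fold (81.2 ± 12.1 to 257 ± 33.5 CPM).

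The largest decreases included transcripts abundant in control kidneys. Ces1d, a carboxylesterase gene, had 433, 692, 658, 638 and 449 CPM in control mice and 51.0, 57.8, 42.8, 87.5 and 46.0 CPM in cKOt mice. The lowest control value was far above the highest cKOt value, and the fall was 3.31 ± 0.20 on the log2 scale (9.92-fold, adjusted p = 2.65e-19). Cyp2a5, a coumarin hydroxylase gene, fell 18.3-fold (142 ± 52.5 to 7.98 ± 2.25 CPM) and its close paralog Cyp2a4 fell 7.46-fold (536 ± 45.1 to 71.7 ± 13.1 CPM). Reads without a unique alignment were counted on no gene, so reads that fit both of such near-identical copies are missing from each. The levels of both are thus uncertain, as are C4a against C4b and Cyp4a12a against Cyp4a12b. The other large decreases were Anks1b (19.6-fold), Synpr (17.5-fold), Angptl7 (13.1-fold), Gm10787, C4a, Alb, Hrg and Cyp4a12a. Synpr varied within groups, with 8.48 CPM in control replicate 1 against 26.7 to 42.3 CPM in the other control mice. Cyp4a12a varied in cKOt mice, with 83.8 CPM in replicate 2 against 13.1 to 17.7 CPM in the others and 141 to 296 CPM in control mice.

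Genes that bring fatty acids into mitochondria and peroxisomes were mostly lower in cKOt kidneys. Fatty acids are the main fuel of the proximal tubule, and long chains enter mitochondria as carnitine esters. Of 14 tested genes of carnitine uptake, synthesis and shuttle, 8 were called lower and 2 higher (median log2 fold change -0.27, against 0.02 over all genes). The carnitine transporter gene Slc22a5 had 322, 281, 311, 301 and 258 CPM in control mice and 124, 124, 137, 124 and 124 CPM in cKOt mice. It fell 2.32-fold without overlap (log2 -1.21 ± 0.10, adjusted p = 2.11e-14). Slc25a20, which exchanges acylcarnitine for carnitine across the inner membrane, had 66.5, 62.9, 63.9, 68.6 and 60.9 CPM in control mice and 31.4, 30.7, 32.0, 32.9 and 26.0 CPM in cKOt mice (2.1-fold lower, adjusted p = 6.91e-11). Cpt1a, the entry step of the shuttle, fell from 551 ± 38.6 to 345 ± 26.9 CPM (adjusted p = 2.54e-11) and Cpt2, its partner on the inner membrane, from 211 ± 8.24 to 119 ± 9.92 CPM (adjusted p = 4.26e-10). Neither overlapped between groups. The carnitine acetyltransferase gene Crat (1.5-fold) and the carnitine synthesis gene Aldh9a1 (1.63-fold) fell as well. Of the synthesis genes, Shmt1 rose 1.35-fold (adjusted p = 1.94e-06). Bbox1, the last step of synthesis, was low in both groups (1.12 ± 0.427 against 2.00 ± 0.844 CPM), and its call (adjusted p = 0.0363) was lost in 6 of the 10 models that left out 1 mouse (adjusted p up to 0.153).

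Beta-oxidation genes were lower in both organelles. In mitochondria 11 of 20 tested genes were called lower and none higher (median -0.16), with 7 lower in a model without factors for unwanted variation. The long-chain acyl-CoA dehydrogenase gene Acadl had 395, 460, 469, 516 and 461 CPM in control mice and 234, 255, 237, 264 and 219 CPM in cKOt mice. It fell 1.88-fold without overlap (log2 -0.91 ± 0.06, adjusted p = 5.95e-17). Eci2 and Decr1, which process unsaturated chains, fell 1.51-fold and 1.39-fold. The medium-chain gene Acadm fell 1.18-fold (adjusted p = 0.0331) with overlapping values, a call that was lost in 6 of the 10 models that left out 1 mouse (adjusted p up to 0.119). In peroxisomes 14 of 20 tested genes were called lower and 1, Hacl1, higher (median -0.29). The thiolase gene Acaa1b fell 2.43-fold (adjusted p = 1.36e-09), and the fatty acid importer gene Abcd3 fell 1.44-fold. Hacl1, a lyase of branched-chain oxidation, stood at 2.10 ± 0.658 CPM in control mice against 3.16 ± 0.71 CPM in cKOt mice, and its call (adjusted p = 0.0318) was lost in as many of these models (adjusted p up to 0.132).

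The nuclear receptors that switch on these genes moved apart. Ppard had 24.8, 14.4, 15.3, 28.6 and 20.2 CPM in control mice and 146, 134, 115, 143 and 153 CPM in cKOt mice, a 6.3-fold increase without overlap (log2 2.66 ± 0.20, adjusted p = 1.33e-15). Ppara fell 1.38-fold (79.6 ± 10.9 to 58.6 ± 7.70 CPM, adjusted p = 0.000216), with values that overlapped. Of 24 tested PPAR receptor and target genes, 12 were called lower and 1, Ppard itself, higher (median -0.45). Angptl4, a lipoprotein lipase inhibitor gene, had 62.2, 31.3, 38.5, 42.5 and 32.6 CPM in control mice and 3.27, 2.25, 7.47, 8.36 and 6.76 CPM in cKOt mice. It fell 7.45-fold without overlap (log2 -2.90 ± 0.42, adjusted p = 2.73e-07). The mitochondrial carrier gene Ucp2 had 157, 126, 120, 130 and 143 CPM in control mice and 36.6, 33.8, 37.4, 55.3 and 46.4 CPM in cKOt mice (3.25-fold lower, adjusted p = 9.24e-15), and the lipid droplet gene Plin5 fell 3.93-fold from 4.06 ± 0.532 to 1.04 ± 0.423 CPM (adjusted p = 2.41e-07).

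Uptake and activation of fatty acids showed both directions, with 8 of 18 tested genes lower and 4 higher (median -0.20). The fatty acid translocase gene Cd36 fell 1.49-fold and the very long chain acyl-CoA synthetase gene Slc27a2 1.39-fold, both without overlap, and the medium-chain synthetase gene Acsm3 fell 1.7-fold. Acsm1 rose 1.44-fold, Acsl5 1.29-fold and Acss1 1.2-fold. In the TCA cycle, 5 of 18 tested genes were called lower and none higher (median -0.06), with 2 lower in a model without the factors for unwanted variation. The Ogdh and Mdh2 calls were lost in the models of 10 samples, and the Mdh2 call also without control replicate 2 or cKOt replicate 1 (adjusted p up to 0.0608). Among 8 complex II subunit and assembly genes 0 were called by edgeR, Sdha included (1110 ± 60.8 against 1147 ± 66.7 CPM), and among 7 sirtuin genes 0 were called, Sirt3 included (100 ± 6.75 against 100 ± 6.64 CPM). At an unadjusted p under 0.05 each of these lists had 1 gene, lower in cKOt mice, and DESeq2 and limma called 0 in either.

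**Figure D4:**
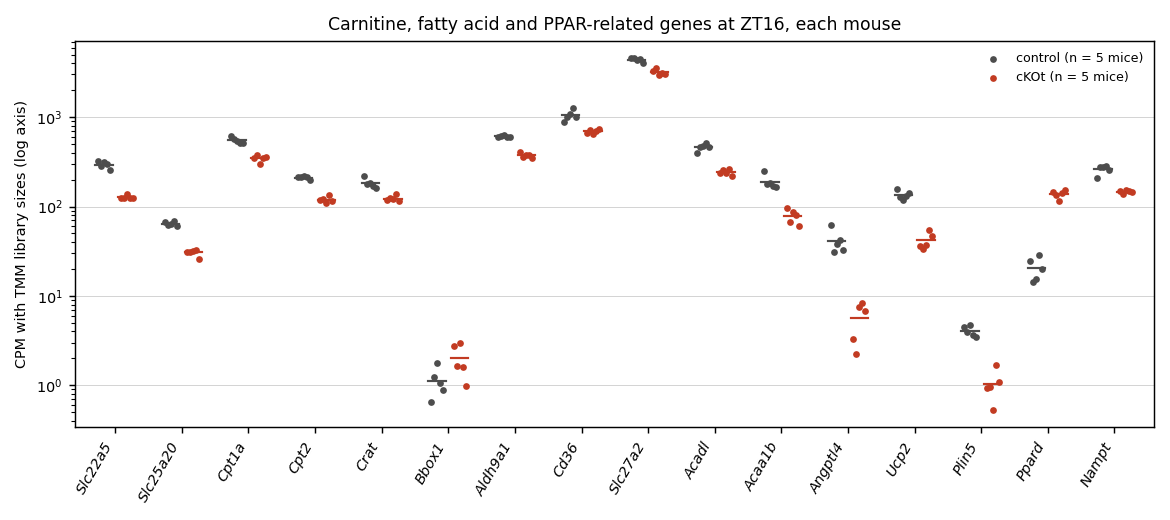
Levels at ZT16 of carnitine, fatty acid and PPAR-related genes and of Nampt, in CPM on a log axis, 1 point per mouse and a bar at the mean (n = 5 control and 5 cKOt mice). All but Bbox1 are without overlap, Ppard is the 1 other gene higher in cKOt mice, and Slc22a5 falls from 258 to 322 CPM in control mice to 124 to 137 CPM.

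Nampt, the rate-limiting enzyme of NAD salvage and a known E-box target of the clock, had 208, 276, 276, 288 and 258 CPM in control mice and 148, 138, 154, 149 and 146 CPM in cKOt mice. It fell 1.73-fold without overlap (log2 -0.79 ± 0.06, adjusted p = 5.95e-17), and the fall was 0.40 ± 0.08 larger than at ZT4 (adjusted p of the difference = 0.00747). Of 11 tested genes of NAD salvage and related steps, 2 were called lower (Nampt and the NAD kinase gene Nadk, 1.27-fold) and 3 higher. These were Nmnat3, the mitochondrial NMN adenylyltransferase gene (1.26-fold), Pnp and the ecto-nucleotidase gene Nt5e. The Pnp call (adjusted p = 0.0155) and the Nt5e call (adjusted p = 0.0298) had overlapping values and were lost without the factors for unwanted variation. The Pnp call was also lost without control replicate 1 or cKOt replicate 4 (adjusted p up to 0.0618) and the Nt5e call in 5 of the 10 models that left out 1 mouse (adjusted p up to 0.12), and Pnp has a near-identical copy, Pnp2. In the kynurenine and Preiss-Handler pathways, which make NAD from tryptophan and nicotinic acid, 4 of 12 were higher and 2 lower. Kmo rose 1.26-fold and Kyat3 1.27-fold, both without overlap, Kyat1 fell 1.58-fold and Afmid 1.46-fold. Qprt (adjusted p = 0.00445) was called higher, but not in models without the factors, and Haao, Naprt and Nadsyn1 were not called (adjusted p = 0.866, 0.698 and 0.0881).

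Of 20 cholesterol synthesis and uptake genes, 8 were called lower, 1 was called higher and 11 were not called (median -0.23). The count lower was 5 without the factors for unwanted variation, 4 in the model of 10 samples and 3 with batch in that model. Insig1, a sterol-regulated brake on SREBP processing, had 58.0, 68.7, 89.1, 87.4 and 113 CPM in control mice and 42.7, 32.3, 45.9, 46.0 and 44.8 CPM in cKOt mice (1.94-fold lower, adjusted p = 9.98e-06). Dhcr7 fell 1.35-fold and Hmgcs1 1.28-fold, while Idi1, an isomerase of the same pathway, rose 1.98-fold from 19.2 ± 6.02 to 37.1 ± 4.04 CPM (adjusted p = 4.82e-07). Of 16 genes of gluconeogenesis and ammoniagenesis, 5 were called higher and 1 lower, but only 1 was called higher and 0 lower in the model of 10 samples, where Glud1 (1.22-fold), Fbp2, Slc7a7 and Fbp1 were among those that lost their calls. The Glud1 call was also lost without control replicate 1 (adjusted p = 0.0734), the Fbp2 call without cKOt replicate 4 (adjusted p = 0.0578) and the Fbp1 call in 6 of the 10 models that left out 1 mouse (adjusted p up to 0.105).

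**Figure D5:**
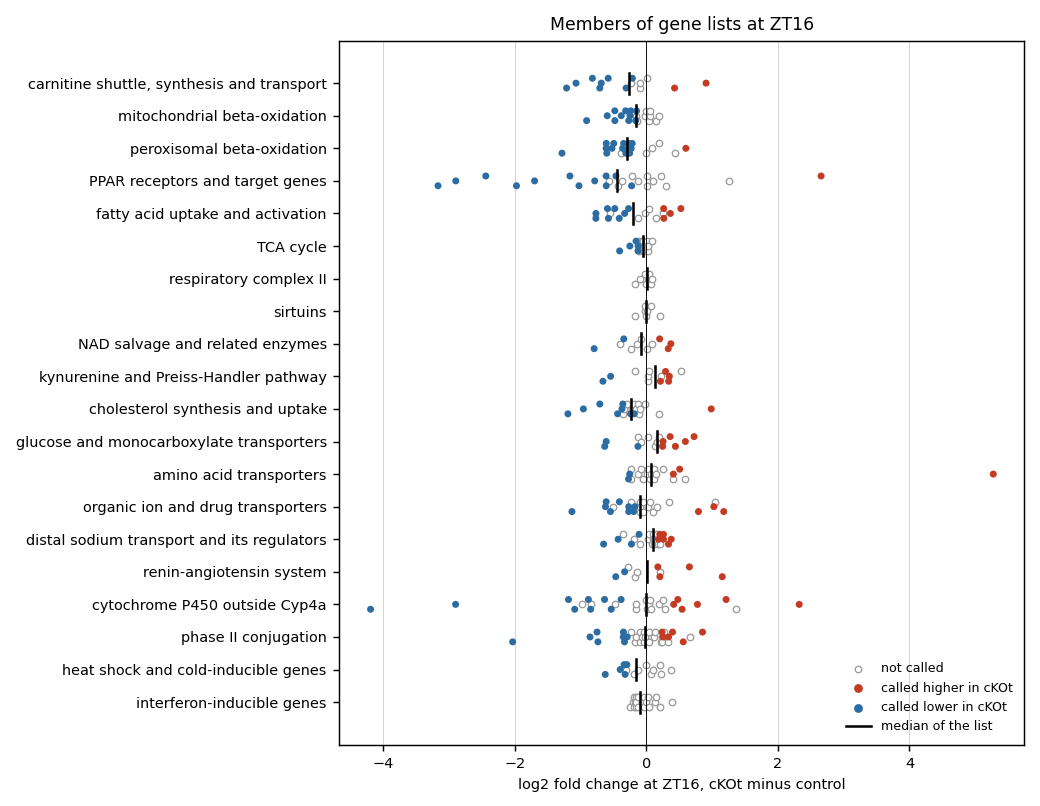
Log2 fold change at ZT16 (cKOt minus control) of each tested member of 20 gene lists, with called members filled (red higher, blue lower), others open, and a bar at the list's median. The bars of the carnitine, beta-oxidation, PPAR and cholesterol lists lie at -0.16 to -0.45, and the complex II, sirtuin and interferon lists hold no called gene.

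Solute transport genes changed in both directions. Of 15 glucose and monocarboxylate transporter genes 6 were called higher and 3 lower. The lactate and ketone transporter gene Slc16a1 rose 1.65-fold (73.8 ± 17.8 to 121 ± 22.1 CPM), the mannose and fructose transporter gene Slc5a10 1.51-fold and the glucose transporter gene Slc2a1 1.36-fold, while the fructose transporter gene Slc2a5 fell 1.55-fold. Slc16a9 fell 1.53-fold, with 286, 381, 382, 330 and 298 CPM in control mice and 213, 247, 201, 230 and 205 CPM in cKOt mice (adjusted p = 9.26e-10). Among 20 amino acid transporter genes 3 were higher (15%) and 2 lower (10%), near the 10% and 9.75% over all genes. Slc6a18 was 1.42-fold higher (adjusted p = 8.54e-06). Of 25 organic ion and drug transporter genes, 9 were lower and 3 higher. The anion transporter gene Slc22a8 (OAT3) had 443, 487, 362, 259 and 338 CPM in control mice and 161, 236, 132, 207 and 132 CPM in cKOt mice (2.19-fold lower, adjusted p = 3.99e-08). Slco1a6 and Slco3a1 fell 1.46-fold and 1.53-fold, whereas the efflux pump gene Abcb1b rose 2.26-fold (3.97 ± 1.04 to 8.82 ± 1.94 CPM) and Abcc3 and Slc22a29 rose from low levels. Slc22a29 belongs to a cluster of near-identical copies.

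In phosphate and proximal sodium transport, 3 of 12 genes were higher and 3 lower. Slc34a2 rose 2.76-fold (4.14 ± 0.691 to 11.4 ± 2.48 CPM, adjusted p = 3.43e-10) and Slc20a2 1.35-fold, and the scaffold gene Pdzk1 fell 1.27-fold. Of 23 genes of distal sodium transport and its regulation, 6 were higher and 4 lower. The sodium channel subunit gene Scnn1b rose 1.3-fold and the potassium channel gene Kcnj1 (ROMK) 1.26-fold, without overlap. The ubiquitin protease gene Usp2 had 152, 169, 164, 138 and 124 CPM in control mice and 91.0, 107, 84.8, 95 and 102 CPM in cKOt mice (1.57-fold lower, adjusted p = 4.53e-07), and Umod, the main secreted protein of the thick ascending limb, fell 1.35-fold. Among 10 aquaporin and vasopressin genes, Aqp4 (1.83-fold), Aqp6 (1.64-fold) and Aqp11 fell. Aqp8, among the largest increases above, was not on this list. The vasopressin receptor gene Avpr1a had 6.92, 4.73, 5.28, 9.02 and 9.86 CPM in control mice and 14.7, 13.7, 14.9, 13.8 and 14.6 CPM in cKOt mice (2-fold higher, adjusted p = 4.08e-08). Avpr2 was called narrowly (adjusted p = 0.0352) and not in 5 of the 10 models that left out 1 mouse (adjusted p up to 0.0977). Of 11 vitamin D and calcium genes 2 were higher (18.2%) and 1 lower (9.09%), against 10% and 9.75% over all genes. The calcium channel gene Trpv5 rose 1.41-fold and the calbindin gene S100g 1.47-fold without overlap. Cyp27b1, which activates vitamin D, spread from 1.93 to 12.0 CPM in control mice and from 1.35 to 4.15 CPM in cKOt mice, and its call (adjusted p = 0.0412) was lost in 5 of these models (adjusted p up to 0.373).

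In the renin-angiotensin system, 4 of 10 tested genes were higher and 2 lower. Agt, the angiotensinogen gene, had 41.9, 26.8, 24.2, 29.2 and 30.6 CPM in control mice and 74.1, 71.5, 74.4, 59.0 and 66.0 CPM in cKOt mice (2.22-fold higher, adjusted p = 6.89e-14). The groups did not overlap. The aminopeptidase gene Anpep fell 1.38-fold (adjusted p = 0.00408), and the Ace call (1.26-fold lower, adjusted p = 0.0216) was lost without the factors for unwanted variation and in 4 of the 10 models that left out 1 mouse (adjusted p up to 0.0875).

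Genes of drug and steroid metabolism held some of the strongest changes. Of 29 tested cytochrome P450 genes outside the Cyp4a family, 9 were lower and 6 higher. Cyp4b1 fell 2.13-fold (3324 ± 489 to 1631 ± 376 CPM) and Cyp2e1 1.84-fold (1877 ± 290 to 1037 ± 169 CPM), both without overlap, while Cyp2d26 rose 1.71-fold, Cyp2d22 1.39-fold and Cyp2c68 5.01-fold from 0.177 ± 0.106 CPM. Of 33 tested conjugation genes 8 were lower and 6 higher. The glutathione transferase gene Gsta3 had 127, 126, 129, 124 and 112 CPM in control mice and 34.1, 28.9, 34.6, 27.9 and 24.6 CPM in cKOt mice (4.09-fold lower, adjusted p = 2.37e-19). Ephx2, the soluble epoxide hydrolase gene, fell 1.68-fold and Ugt2b38 1.81-fold. Mgst1 rose 1.47-fold, Ugt3a1 1.32-fold and Gsta2, which has a near-identical copy in Gsta1, 1.81-fold.

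Genes known to differ with androgens in the mouse kidney moved without one direction. Of 20 genes known to be higher with androgen, 9 were lower in cKOt mice and 3 higher, and of 13 tested genes known to be lower with androgen, 4 were higher and 3 lower. Odc1, the rate-limiting enzyme of polyamine synthesis, had 2797, 2852, 2995, 3715 and 2036 CPM in control mice and 1163, 1356, 1068, 1278 and 1478 CPM in cKOt mice (2.29-fold lower, adjusted p = 2.08e-09). Nudt19 fell 2.06-fold, Timd2 rose 1.32-fold, and the prolactin receptor gene Prlr rose 4.78-fold (4.41 ± 0.973 to 20.0 ± 6.57 CPM, adjusted p = 2.13e-06). In the polyamine pathway, 3 of 13 genes were higher and 2 lower. Arg2, the mitochondrial arginase that makes ornithine, had 2.09, 4.67, 3.73, 5.97 and 7.15 CPM in control mice and 28.0, 29.5, 30.6, 32.2 and 24.3 CPM in cKOt mice, a 6.4-fold increase (log2 2.68 ± 0.15, adjusted p = 1.76e-20). The calls of Azin1, Oaz1 and Sms in that pathway were lost without the factors for unwanted variation.

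Glucocorticoid-responsive and cell cycle genes included several clock-linked members. Hsd11b1, which regenerates active glucocorticoid within cells, had 311, 317, 352, 293 and 283 CPM in control mice and 61.7, 74.4, 101, 83.9 and 113 CPM in cKOt mice (3.57-fold lower, adjusted p = 1.48e-11). Of 16 glucocorticoid-responsive genes 3 were lower (18.8%) and 1 higher (6.25%), against 9.75% and 10% over all genes. Fkbp5 fell 1.6-fold (adjusted p = 0.00499) with overlapping values, 147 and 181 CPM in cKOt replicates 1 and 2 and 90.5 to 117 CPM in the other cKOt mice, against 153 to 237 CPM in control mice. Of 22 cell cycle genes, 4 were lower (18.2%) and 2 higher (9.09%), against the same shares. The mitotic kinase gene Wee1, a known E-box target, fell 2.35-fold (30.8 ± 6.19 to 13.0 ± 1.32 CPM, adjusted p = 2.3e-11) and the cyclin gene Ccnd1 1.91-fold (169 ± 26.9 to 89.1 ± 8.59 CPM). The cell cycle inhibitor gene Cdkn1a (p21), a known target of REV-ERB repression, had 6.76, 4.23, 4.65, 5.68 and 6.78 CPM in control mice and 16.6, 17.5, 13.3, 16.1 and 14.2 CPM in cKOt mice (2.8-fold higher, adjusted p = 8.02e-07). Of 14 heat shock and cold-inducible genes 5 were lower and none higher, with Hsph1 1.54-fold lower (323 ± 29.8 to 206 ± 22.0 CPM).

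Of 13 tested tubular injury genes 1 was higher (Krt18, 1.4-fold, a call lost without the factors) and 1 lower (the cytokine gene Il34, 2.07-fold, 31.1 ± 4.27 to 15.5 ± 5.64 CPM), and Havcr1 (KIM-1) stood at 1.79 ± 0.514 CPM in control mice against 1.45 ± 0.519 CPM in cKOt mice (adjusted p = 0.693). Of 19 tested immediate early genes 1, Klf6, was lower (1.43-fold). Of 20 interferon-inducible genes 0 were called by edgeR, DESeq2 or limma, and 0 had an unadjusted p under 0.05.

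Genes best known as secreted by the liver moved apart. Of 14 tested, 5 were higher and 2 lower. The fibrinogen chain gene Fga had 15.2, 33.1, 18.4, 29.9 and 38.9 CPM in control mice and 98.5, 112, 88.8, 114 and 83.2 CPM in cKOt mice (3.81-fold higher, adjusted p = 3.42e-09), Fgb rose 5.22-fold and Fgg 18.1-fold. The albumin gene Alb fell 9.85-fold (9.10 ± 4.53 to 0.867 ± 0.305 CPM) and Serpina1a 2.44-fold.

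Markers of the cells in the sample were checked for both groups. Markers of the proximal tubule summed to 52200 to 60200 CPM in control and 47400 to 52400 CPM in cKOt mice. Of the 15 proximal tubule markers 6 were called lower and 2 higher, and 11 had a log2 fold change below 0 (median -0.19). Miox (log2 -0.81, adjusted p = 1.2e-08), Slc13a3 (-0.78, adjusted p = 1.06e-08) and Slc22a6 (-0.41, adjusted p = 4.7e-05) were among those lower. Slc5a2 was higher (log2 0.25, adjusted p = 0.00101). Lrp2, Cubn and Slc34a1 were not called (adjusted p = 0.074, 0.066 and 0.859). Slc12a1 of the thick ascending limb, Slc12a3 of the distal convoluted tubule, Aqp2 of the collecting duct and the podocyte gene Nphs1 were expressed in every library and not called, so the libraries held glomerular as well as tubular RNA. Other members of these lists were called. Of 8 thick ascending limb markers 2 were higher and 1 lower, and of 8 distal convoluted and connecting tubule markers 1 was higher. Collecting duct markers were higher in 4 of 12, or 2 without the factors for unwanted variation, and lower in 1. Of 8 podocyte markers 1 was lower. Of the markers of cells without Cre, 4 of 10 endothelial markers were lower, or 2 without the factors for unwanted variation, 1 in the model of 10 samples and 0 with batch in that model (sums of 615 to 701 CPM in control and 519 to 631 CPM in cKOt mice), Pecam1 by 1.13-fold (adjusted p = 0.0121). Fibroblast and pericyte markers were lower in 3 of 10, or 5 of 10 by DESeq2 and 0 without the factors for unwanted variation (300.0 to 530 against 218 to 483 CPM), macrophage and MHC class II markers in 5 of 12, or 1 without the factors (336 to 501 against 303 to 362 CPM) and B cell and plasma cell markers in 2 of 6 tested (93.2 to 305 against 42.4 to 99.7 CPM). Igkc fell 2.61-fold and Jchain 2.58-fold. Perirenal fat markers summed to 32.0 to 45.9 CPM in control and 33.4 to 86.1 CPM in cKOt mice, with cKOt replicate 4 highest, 0 of 10 called by edgeR, DESeq2 or limma and 0 at an unadjusted p under 0.05. The part of these differences in the results above was not tested.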

How the data were processed

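RNA-Seq of 60 mouse kidney samples was used, in 12 groups of 5 by genotype and time, taken from the labels. The deposited files hold whole-number counts per gene. Per the labels and the study's methods, the authors trimmed reads with cutadapt 1.8, aligned them to GRCm38 with STAR 2.5.3a and counted them with HTSeq 0.9.1. The library kit was stranded, and the strand setting of the counting is not given in the sources used here. Of 55335 gene IDs, 55154 had a GENCODE M21 symbol, and the 5 closing lines that name no gene stayed out of library sizes.

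Genes reaching 1 CPM in at least 1 of the 60 samples were tested with edgeR 4.0.16 (R 4.3.3), TMM scaling, the quasi-likelihood test, 1 coefficient per group and 2 RUVs factors for unwanted variation, which the study's methods also used. Depth was 17950038 to 19597225 reads at ZT16. Counts were also simulated over 15286 genes, with each gene's mean and spread taken over all 60 samples. Changes were set in cKOt mice at ZT16, in 100 genes for each size of change, all with a mean over 1 CPM. Unwanted variation was simulated as 2 random factors unrelated to genotype, and no batches were simulated. Of 1.5-fold changes 75% were recovered and of 2-fold changes 88%, and 6.32% of calls were false. Genes of lower level were not covered by these rates. The real data had far more called genes and batches without both genotypes, so the rates do not carry over to the calls above. The alternatives were no RUVs factors, library batch as given in the study's sample table, the 10 samples alone with and without batch, a replicate block, DESeq2 1.42.0 (Wald test and size factors), limma 3.58.1, other filters, and leaving out each mouse. Replicate numbers did not pair the mice, so the main model had no block.

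Named genes were the clock lists, the 10 largest increases and decreases among called genes without overlap and with a mean of at least 1 CPM, up to 3 called members per direction of each described list together with members the study's text names, the 5 largest differences per direction from the other time points, and the 5 smallest p-values of each test. Angptl4, members of other lists given as markers, Ppara and Havcr1 were chosen after their values were seen. A few genes that these rules select are not reported here. The members and lists were chosen with earlier results of these data known.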

Additional observations from a re-analysis of the deposited data

Results flagged for a closer look

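One mouse stood apart from the other 4 of its group by Dixon's measure, the gap to the nearest value divided by the group's range, in 25 of 368 groups of 5 values of named genes (critical value 0.71, which chance passes in about 1 of 20 groups). The library was control replicate 1 in 9 of them. It was highest for Acaa1b (gap 0.763 of the range), Aqp6 (0.944), Acads (0.909), Slc2a1 (0.797), Oaz1 (0.774) and Qprt (0.767), and lowest for Ugt2b38 (0.747), Cul3 (0.787) and Glud1 (0.809). Acads, for example, had 280 CPM in that mouse and 184 to 193 CPM in the other control mice. Control replicate 4 was highest for Hao2 (0.785), Slc6a18 (0.853) and Vmn1r32 (1.0, its single read), and lowest for Cyp2d22 (0.724) and Ccnd2 (0.858). Control replicate 5 was highest for Fgg (0.75) and lowest for Gsta3 (0.722), control replicate 2 was lowest for Abcc3 (0.754) and control replicate 3 highest for Anks1b (0.741). In cKOt mice, replicate 2 was highest for Cyp4a12a (0.934), Kmo (0.737) and Hsp90ab1 (0.739) and lowest for Insig1 (0.762), and replicate 3 was highest for Slc22a5 (0.987) and Prlr (0.727) and lowest for Afmid (0.813). For Slc22a5 the other 4 cKOt mice lay at 124 CPM, so that 137 CPM counts as apart.

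The genotype effect at ZT16 differed from the mean of the other 5 time points, by the test of the difference on the log2 scale. It was higher at ZT16 for 9030625G05Rik (1.39), Eddm3b (1.17), Fabp7 (0.81), Hmgn3 (0.56), Ddc (0.55) and Thra (0.34), and lower for Gm42047 (-1.53), Lingo4 (-1.35), Cry1 (-1.09), Rhobtb1 (-0.44), Slc16a9 (-0.35) and Cry2 (-0.31). Against ZT4 alone it was higher for 9030625G05Rik (1.99), Dbp (1.98), Nr1d1 (1.79), Eddm3b (1.56), Fabp7 (1.11), Per3 (0.93), Ddc (0.78), Thra (0.40) and Car5b (0.36). It was lower for Cry1 (-2.67), Lingo4 (-2.01), Nfil3 (-1.98), Gm42047 (-1.79), Rhobtb1 (-0.98), Cry2 (-0.50), Slc16a9 (-0.47) and Nampt (-0.40).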

How the results depend on the processing

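The count of called genes moved most with the treatment of unwanted variation, from 3071 to 1853 without RUVs factors, 1829 with library batch in their place, 1423 in the 10 samples alone, 822 with batch in those 10 and 1378 with a replicate block in those 10. It was 2491 to 3137 with DESeq2, limma and the other filters and 2597 to 2938 when 1 mouse was left out. The count of genes differing from the mean of the other times went from 16 to 40 with DESeq2's Wald test, 9 with filterByExpr, 9 with no filter, 4 with library batch and 6 without RUVs factors, and was 6 to 26 when 1 mouse was left out. Against ZT4 it went from 43 to 86 with the Wald test and 77 with library batch, and was 27 to 47 when 1 mouse was left out. The Arntl difference (-0.06) passed the threshold in no alternative. Its sign turned with library batch (0.0209), with limma (0.0443), with batch in the 10 samples (0.126) and with the replicate block in the 10 samples (0.0460), and it was -0.24 to 0.19 when 1 mouse was left out. The same replicate number did not mark a pair of mice, as correlations of their deviations were -0.07 to 0.19 over 5 pairs and 2 of 10 samples correlated best with their own number. With the replicate block and RUVs factors 3096 genes were called and 1 named gene, Cyp27b1, lost its call.

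Of 183 named genes other than Arntl, 170 were called and 119 of these passed in every alternative. The call was lost by 26 without RUVs factors, 26 with library batch, 36 in the 10 samples, 47 with batch in the 10 samples and 22 in some model without 1 mouse. Signs turned for genes near 0 that were never called. Naprt was -0.0566 with batch in the 10 samples and -0.0163 to 0.0801 when 1 mouse was left out, Sirt3 -0.0495 to 0.0046 when 1 mouse was left out, and Haao -0.0022 with batch in the 10 samples and -0.0036 to 0.0726 when 1 mouse was left out. Nnt was -0.0070 and -0.0088 with DESeq2's test and size factors, -0.0078 with filterByExpr, -0.0247 with limma, -0.0192 with no filter, -0.0175 with the replicate block in the 10 samples and -0.0050 with the block and RUVs factors, and -0.092 to 0.133 when 1 mouse was left out. The cause of these changes was not tested. Batches without both genotypes and 5 mice a group limit what small differences can show.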

Other observations

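Of 17 genes of haem and iron handling 5 were lower and 2 higher in cKOt mice, Alas1 (the rate-limiting enzyme of haem synthesis) and Hmox1 (haem oxygenase) among those lower, with log2 fold changes of -0.71 and -0.66. Of 17 tested NRF2 and glutathione genes 6 were lower and 1, Ggct, higher. Of 17 endoplasmic reticulum folding genes 2 were lower, Herpud1 (-0.75) and Dnajb9 (-0.24), and of 11 tested ATF4 target genes Asns was lower (-0.74) and Cth higher (0.23). Of 15 fatty acid synthesis genes 4 were lower and 1, the elongase gene Elovl6 (0.48), higher. These genes were named after their values were seen.

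By time point, the called genes numbered 1884 at ZT0, 1950 at ZT4, 3095 at ZT8, 3271 at ZT12, 3071 at ZT16 and 2140 at ZT20. Of the ZT16 calls, 673 were called in the same direction at all 5 other times and 625 at none of them. The difference between time points was tested only as given in the report.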
